A study of Mus musculus with 9 samples.

Results

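The proteasome subunit genes described here are the protein-coding genes whose mouse symbol starts with Psma, Psmb, Psmc, Psmd, Psme, Psmf or Psmg. The rule found 50 of the 55401 genes of the count table, among 21897 protein-coding genes. A further 4 symbols of that form belong to pseudogenes and were left out. RNA was sequenced from female XEN cells, the extra-embryonic endoderm stem line derived from primitive endoderm, whose parents were M. m. molossinus and M. musculus. DXp libraries (n = 2) lack a segment upstream of Xist on the X chromosome inherited from the father. DXp_DXm libraries (n = 2) lack it on both X chromosomes. WT_clone libraries (n = 2) and WT_EV libraries (n = 3) carry the genotype label WT. All were female XEN cells grown in the same medium. The ends of the deleted segment, the meaning of EV and the number of lines per genotype are not stated, so each deletion may be 1 clone. The WT_EV libraries are not stated to be separate cultures, and p-values then reflect spread among these libraries alone, which can be technical.

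The proteasome is the protease that degrades ubiquitin-tagged proteins. Its 20S core is a stack of rings in which alpha subunits form the outer gates and beta subunits the inner chamber, with the proteolytic sites on Psmb5, Psmb6 and Psmb7. The 19S regulatory particle binds the ends of the core: its base holds a ring of ATPases that unfold substrates, and its lid holds the deubiquitinase Psmd14. In mammalian cells the subunit genes are known to be induced together when proteasome activity falls, largely through the transcription factor NFE2L1.

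Counts summed to 24586135 and 29335803 per library in DXp, to 25589912 and 27334893 in DXp_DXm, and to between 14352719 and 19833044 in WT_EV. The WT_clone counts come from a table of their own, held here for 11512 genes, with 7641676 and 5825838 counts. The 10 XEN markers were detected in every library of the 3 groups except Col4a1, a basement membrane collagen, which was at 0 CPM (read counts scaled to the size of each library) in DXp replicate 1, against 1983 CPM in DXp replicate 2. Together they had a summed level of 7425 to 17110 CPM in DXp, 11220 to 14150 CPM in DXp_DXm and 21320 to 28880 CPM in WT_EV, and the lowest DXp sum is that of replicate 1. Summed trophoblast markers reached at most 4.87 CPM and summed pluripotency markers at most 0.759 CPM in any of these libraries, and fibroblast markers at most 0.102 CPM. How RNA was selected is not stated, and a possible measure of it separated the libraries. The non-polyadenylated 7SK RNA, Rn7sk, had 3 and 4 counts in DXp and 2 and 7 in DXp_DXm, against 157188 to 255029 in WT_EV. The deletions and this difference between library sets cannot be told apart in any comparison with WT_EV below.

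Of the 50 genes, 46 passed the filter on low counts. The other 4 are the testis-specific alpha subunit Psma8, the immunoproteasome subunits Psmb8 and Psmb9, and the thymus-specific Psmb11, none with more than 2 counts in a library. One gene that passed, Psmc3ip, matches by name alone: it encodes a partner of meiotic recombinases.

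Against WT_EV, most proteasome genes were lower in the paternal deletion, among them 6 of 7 constitutive beta subunits and 5 of 6 ATPases, while Psmc6 and Psme4 were several-fold higher. In DXp, 7 of 46 were higher, 30 were lower and 9 were not called at an adjusted p under 0.05 (edgeR's quasi-likelihood test, Benjamini-Hochberg adjustment over all 15331 genes tested). Of all genes tested, 32.2% were called higher and 40.1% lower, 72.3% in all. The median log2 fold change was -1.38 over the 46 and -0.35 over all genes. In DXp_DXm, 14 of 46 were higher, 20 lower and 12 not called, where 30.9% and 36.0% of all genes were called (66.8% in all). The median there was -0.56 over the 46 and -0.15 over all genes. Both comparisons share the WT_EV libraries. In bulk RNA, fewer cells that express a gene and less of its RNA per cell cannot be told apart. Side by side, 7 genes were called higher in each deletion and 20 lower in each, and none was called in opposite directions. The share of all genes with the same call in each deletion was not counted, so these counts are descriptions.

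**Figure D1:**
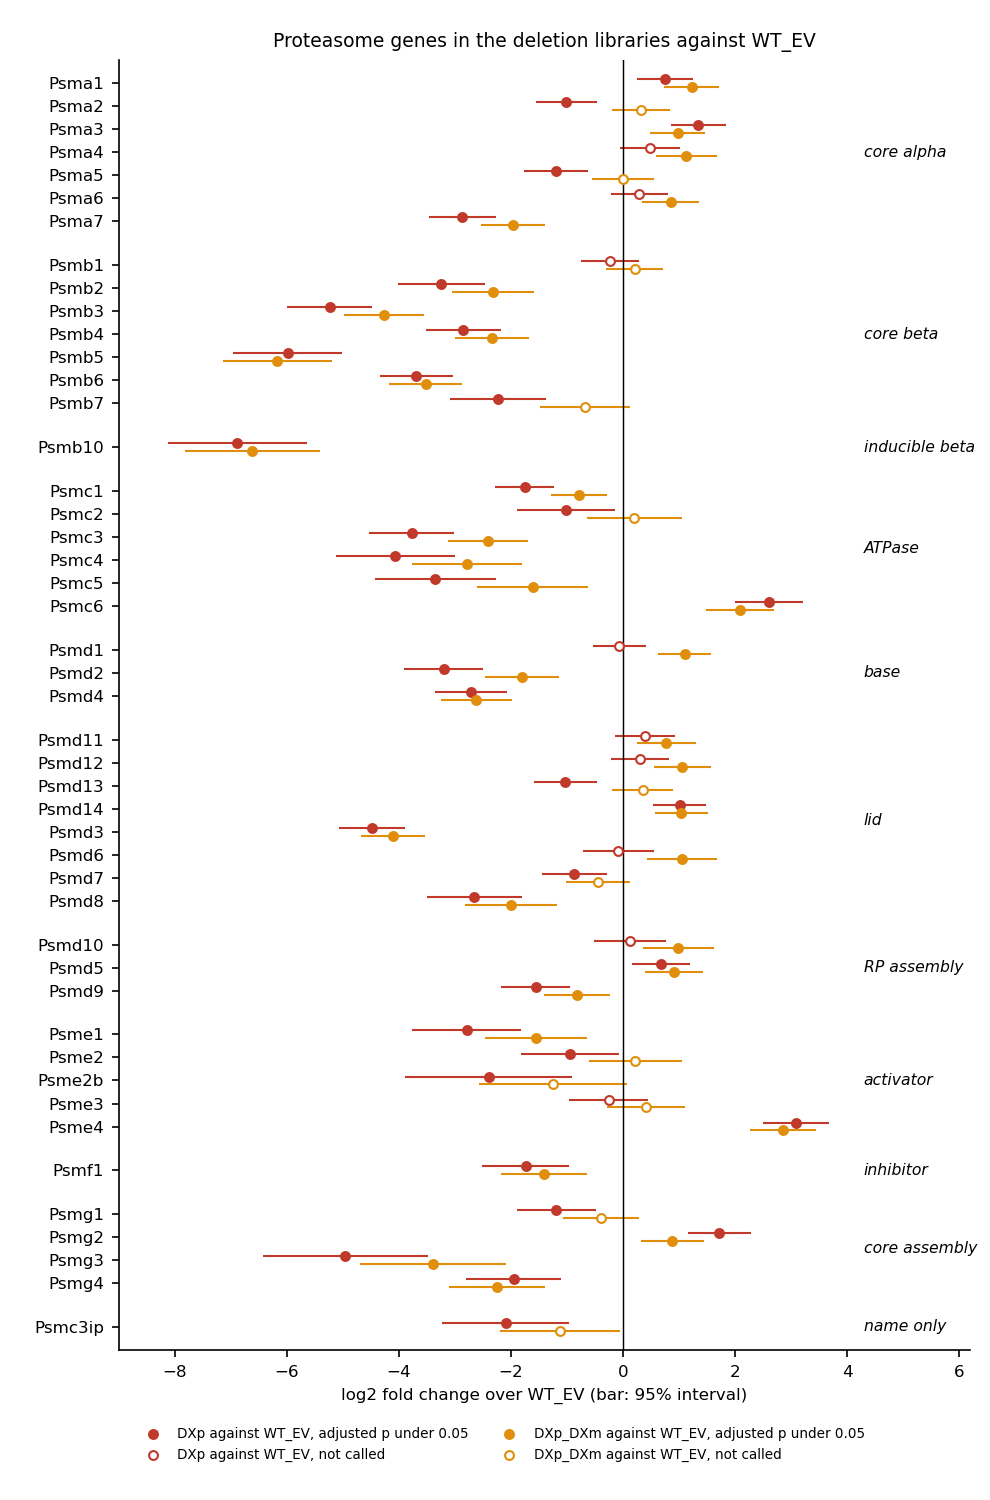
Log2 fold change over WT_EV (x axis) of the 46 tested proteasome genes (rows, grouped by role) in DXp (red) and DXp_DXm (orange), with 95% intervals from the fit; filled points passed an adjusted p of 0.05. Psmb5 and Psmb10 sit near -6 to -7 and Psme4 near 3 in both deletions.

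Fold changes of these genes followed the base composition of their transcripts, given first because it bears on every value below. GC here is that of the annotated transcript with the longest coding sequence. The 7 genes higher in DXp had 37.0 to 46.4% GC (median 43.9%), and the 30 lower ones had 39.4 to 58.3% (median 52.5%). Across the 46 genes the Spearman correlation of log2 fold change with GC was -0.87 in DXp and -0.88 in DXp_DXm. Over 15311 genes with a GC value it was -0.65 in DXp and -0.64 in DXp_DXm. These genes share the libraries and the WT_EV reference, so these correlations are descriptions. The median log2 fold change in DXp of the 9 proteasome genes with 54% GC or more was -3.77, beside -3.34 for all 4039 genes of that class. For the 21 between 48 and 54% GC, the largest class, it was -2.10, beside -0.71 for all 4704. For the 13 between 42 and 48% GC it was 0.40, beside 1.17 for all 4421, and for the 3 below 42% it was 1.34, beside 2.08 for all 2147.

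For genes at the ends of the range of fold changes, the contrast can be read in the coding sequence. Each line below is the first 120 bases of the longest coding exon, on the coding strand, from GENCODE M21 on GRCm38, shown for Psmb3 and Psmb5, among the lowest of the 46 genes, and for Psmc6 and Psme4, the highest in DXp. Capitals mark G and C, which make up 54.2% of the Psmb3 stretch (exon 2, plus strand, chr11:97703788-97703907), 52.5% of the Psmb5 stretch (exon 2, minus strand, chr14:54616702-54616821), 36.7% of the Psmc6 stretch (exon 9, plus strand, chr14:45340773-45340892) and 42.5% of the Psme4 stretch (exon 10, plus strand, chr11:30810783-30810902).
Psmb3: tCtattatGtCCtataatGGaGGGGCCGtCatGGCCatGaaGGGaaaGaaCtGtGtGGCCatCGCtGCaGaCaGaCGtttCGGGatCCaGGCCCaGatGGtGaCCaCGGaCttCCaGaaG
Psmb5: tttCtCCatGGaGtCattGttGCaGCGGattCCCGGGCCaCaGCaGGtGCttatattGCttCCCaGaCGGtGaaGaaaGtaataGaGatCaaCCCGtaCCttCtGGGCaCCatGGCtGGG
Psmc6: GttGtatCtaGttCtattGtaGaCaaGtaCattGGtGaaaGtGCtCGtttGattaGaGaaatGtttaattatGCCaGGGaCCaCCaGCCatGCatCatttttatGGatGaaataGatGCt
Psme4: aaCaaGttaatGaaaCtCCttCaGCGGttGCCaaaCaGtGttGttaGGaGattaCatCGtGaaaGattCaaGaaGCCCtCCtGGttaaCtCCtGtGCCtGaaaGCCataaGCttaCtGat

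A second fit removed a smooth trend on GC and transcript length from each library before testing, and is called the offset fit below. Its GC and length were first taken from the longest transcript of any type, and were changed to the transcript with the longest coding sequence after results had been seen. With it, 5 of the 46 genes were higher and 25 lower in DXp, where 25.1% and 26.4% of all genes were called, and the median log2 fold change was -0.77 beside -0.08 for all genes. In DXp_DXm, 4 were higher and 14 lower, where 22.1% and 21.2% of all genes were called (43.2% in all), with medians of -0.32 and 0.01. With the first choice of transcript 6 were higher and 24 lower in DXp (24.9% and 26.7% of all genes) and 11 higher and 14 lower in DXp_DXm (21.8% and 21.7% of all genes). Across the 46 genes the Spearman correlation with GC was -0.31 in DXp and -0.38 in DXp_DXm under the offset fit. In DXp, 20 genes were lower and 3 higher (Psmc6, Psme4 and Psmg2) with and without offsets. In DXp_DXm, 13 were lower and 2 higher (Psmc6 and Psme4) with and without them. The share of all genes with the same call in both fits was not counted.

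**Figure D2:**
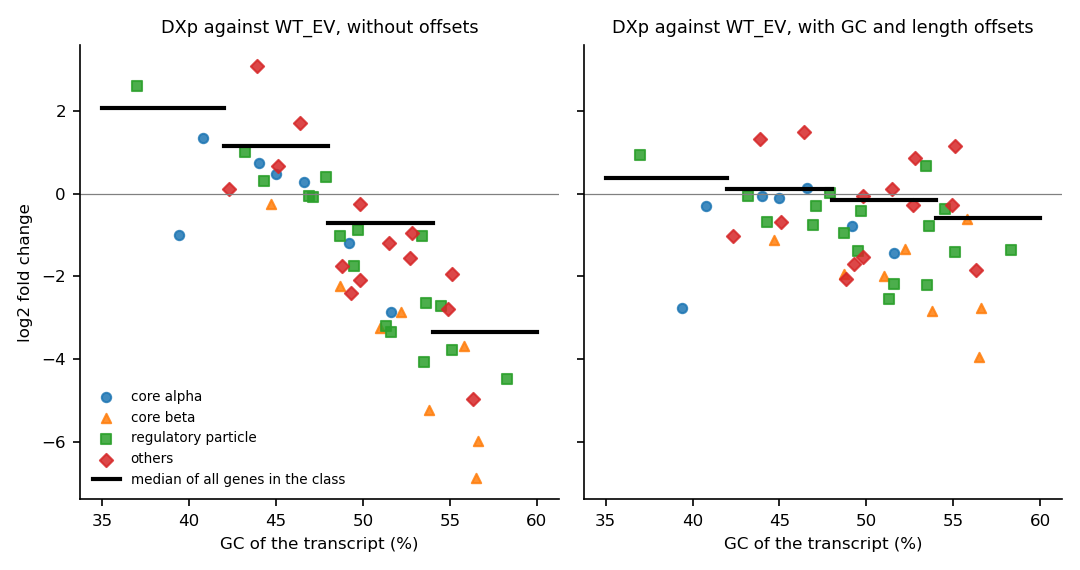
Log2 fold change of DXp over WT_EV (y axis) against the GC of the transcript in percent (x axis) for 46 proteasome genes, by role, without (left) and with (right) GC and length offsets; black bars are medians of all genes in 4 GC classes. Without offsets the points fall from about 3 to about -7 as GC rises; with them 25 genes are called lower, 20 of which are lower in both fits.

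The constitutive beta ring had the lowest median of the roles with 3 or more tested genes. Of its 7 constitutive subunits, 6 were lower in DXp and 5 in DXp_DXm, with a median log2 fold change of -3.25 in DXp and -2.34 in DXp_DXm. Under the offset fit, 7 were lower in DXp and 5 in DXp_DXm. Of all genes, 40.1% were lower in DXp and 36.0% in DXp_DXm, and with offsets 26.4% and 21.2%. Summed over the ring, the level was 139.4 and 174.2 CPM in DXp and 296.9 and 249.7 CPM in DXp_DXm, against 1006, 792.4 and 690.7 CPM in WT_EV. Each deletion library lay below every WT_EV library.

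Psmb5 (ENSMUSG00000022193, chr14:54614119-54618022, minus strand) carries the chymotrypsin-like site. It was measured at 1.48 and 0.695 CPM in DXp and 0.746 and 1.14 CPM in DXp_DXm, against 69.6, 62.7 and 72.5 CPM in WT_EV. These levels rest on 18 to 29 counts in the deletion libraries and on 1209 to 1486 in WT_EV, and the groups do not overlap. Its log2 fold change was -5.99 ± 0.43 (SE; adjusted p = 4.58e-06) in DXp and -6.17 ± 0.44 (adjusted p = 7.61e-06) in DXp_DXm, and the offset fit gave -2.77 in DXp and -3.32 in DXp_DXm, both called.

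Psmb6, the caspase-like site, had 13.1 and 11.1 CPM in DXp and 12.5 and 14.6 CPM in DXp_DXm, against 183.4, 160.0 and 124.1 CPM in WT_EV. The log2 fold change of Psmb6 was -3.69 ± 0.30 in DXp (adjusted p = 5.45e-06) and -3.52 ± 0.29 in DXp_DXm (adjusted p = 1.06e-05). The offset fit left -0.61 in DXp (adjusted p = 0.0472) and -0.84 in DXp_DXm (adjusted p = 0.0154). Psmb7, the trypsin-like site, had 19.8 and 46.9 CPM in DXp and 115.8 and 80.4 CPM in DXp_DXm, against 187.9, 145.5 and 138.9 CPM in WT_EV. The DXp libraries of Psmb7 differ from each other more than those of WT_EV do. It was lower in DXp (-2.24 ± 0.39, adjusted p = 0.000484, and -1.94 with offsets), and in DXp_DXm its value of -0.68 ± 0.36 did not pass (adjusted p = 0.116; 0.0482 without DXp replicate 2). Psmb7 overlaps Nek6 on the other strand, and whether counting used strand is not given.

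Among the structural beta subunits, Psmb3 had 3.48 CPM in both DXp libraries and 7.34 and 6.32 CPM in DXp_DXm, against 165.1, 126.3 and 101.6 CPM in WT_EV. Its log2 fold change was -5.23 ± 0.34 in DXp (adjusted p = 4.46e-06) and -4.26 ± 0.32 in DXp_DXm (adjusted p = 8.34e-06), and the offset fit gave -2.83 in DXp and -2.30 in DXp_DXm, both called. Psmb2 (-3.25 in DXp, -2.32 in DXp_DXm) and Psmb4 (-2.85 in DXp, -2.34 in DXp_DXm) were lower in both, also with offsets. Psmb1 had 76.7 and 83.6 CPM in DXp and 116.6 and 102.4 CPM in DXp_DXm, against 106.1, 98.0 and 78.9 CPM in WT_EV. It is the one subunit of this ring whose deletion libraries overlap those of WT_EV. Its transcript has the lowest GC of the ring at 44.7%, though its coding sequence alone has 50.1%, above the 48.6% of Psmb7. It passed in neither deletion without offsets (-0.24 in DXp, 0.22 in DXp_DXm). The offset fit called it lower in DXp (-1.12, adjusted p = 0.00448), and offsets from the longest transcript of any type did not (-0.07, adjusted p = 0.796).

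The inducible beta subunits replace the catalytic ones in the immunoproteasome, which interferon induces. Psmb8 and Psmb9 were at or next to 0 in every library. Psmb10, the inducible counterpart of Psmb7 (ENSMUSG00000031897, chr8:105935735-105938444, minus strand), had 0.153 and 0.116 CPM in DXp and 0.166 and 0.157 CPM in DXp_DXm, against 21.9, 13.9 and 13.3 CPM in WT_EV. Those are 3 or 4 counts in each deletion library against 222 to 390 in each WT_EV library. Its log2 fold change of -6.89 ± 0.56 in DXp (adjusted p = 5.65e-06) was the lowest among the 46, and it was -6.62 ± 0.54 in DXp_DXm (adjusted p = 1.04e-05). With offsets it was -3.95 in DXp and -3.996 in DXp_DXm, both called. At 3 or 4 counts the size of the fold is loosely set, and an annotated antisense gene, Gm16156, covers the same bases.

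The alpha ring had calls in both directions. Of 7 tested alpha subunits, 2 were higher and 3 lower in DXp, and 4 higher and 1 lower in DXp_DXm. Under the offset fit none was higher, 3 were lower in DXp and 2 in DXp_DXm. Shares of all genes were 32.2% higher and 40.1% lower in DXp, and 30.9% and 36.0% in DXp_DXm, so the DXp counts of this ring are near those shares. With offsets the shares were 25.1% and 26.4% in DXp, and 22.1% and 21.2% in DXp_DXm. The summed level of the ring was 842.4 and 924.2 CPM in DXp and 1189 and 1108 CPM in DXp_DXm, against 884.2, 753.0 and 711.4 CPM in WT_EV. The alpha sum over the beta sum was 6.04 and 5.31 in DXp and 4.00 and 4.44 in DXp_DXm, against 0.879, 0.950 and 1.03 in WT_EV. The alpha transcripts had a median GC of 45.0% and the beta transcripts 52.2%, and the part of GC in this difference was not tested.

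Psma3 had 350.8 and 377.6 CPM in DXp and 242.4 and 323.2 CPM in DXp_DXm, against 156.3, 136.5 and 137.4 CPM in WT_EV. Every deletion library lay above every WT_EV library, with a log2 fold change of 1.35 ± 0.22 in DXp (adjusted p = 0.000334) and 0.98 ± 0.22 in DXp_DXm (adjusted p = 0.00284). The offset fit gave -0.29 in DXp (adjusted p = 0.337) and -0.31 in DXp_DXm (adjusted p = 0.313), and so ended both calls. Psma7, with the highest GC of the ring (51.6%), had 18.4 and 22.7 CPM in DXp and 41.7 and 35.3 CPM in DXp_DXm, against 174.9, 139.0 and 135.0 CPM in WT_EV. It was lower in both (-2.86 ± 0.27 in DXp, adjusted p = 1.1e-05, and -1.96 ± 0.26 in DXp_DXm, adjusted p = 0.00011), and with offsets by -1.42 in DXp and -0.95 in DXp_DXm. That direction depends on the transcript behind the offsets: with the longest transcript of any type Psma7 was 0.21 in DXp (adjusted p = 0.411) and called higher in DXp_DXm (0.90, adjusted p = 0.00726). Psma1 was higher in both deletions without offsets, Psma4 and Psma6 in DXp_DXm, and Psma5 lower in DXp. Psma2, whose transcript has only 39.4% GC, was lower in DXp (-1.01 without and -2.76 with offsets) and by transcript GC went against the trend of the ring. Its coding sequence alone has 48.1% GC, below only the 50.5% of Psma7 in this ring, and its 3′ untranslated region 36.3%. By coding GC Psma2 therefore did not go against the trend, and the offsets used the transcript GC. The span of Psma2 holds another annotated gene on the same strand, AW209491, which overlaps it by 8943 bases.

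**Figure D3:**
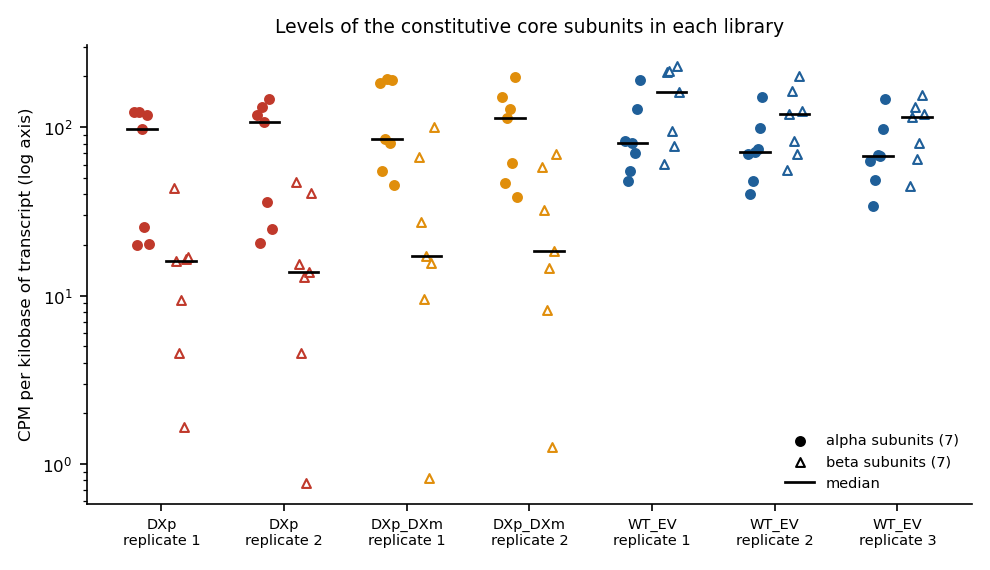
Level of the 7 alpha (filled circles) and 7 beta (open triangles) constitutive core subunits in each library, in CPM per kilobase of transcript on a log axis, with medians as bars. The subunits lie within 4.59 to 5.03 fold of each other in WT_EV and spread over 74.7 fold or more in each deletion library.

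Subunits of the core are needed in equal number, and per kilobase of transcript their levels lay close together in WT_EV and far apart in the deletion libraries. These levels carry no offsets, and the core transcripts range from 39.4 to 56.6% GC. The part of GC in this spread was not tested, and the Rn7sk difference between library sets applies here too. The highest over the lowest of the 14 constitutive core subunits was 74.7 and 190 in DXp and 234 and 157 in DXp_DXm, against 4.77, 5.03 and 4.59 in WT_EV. Psmb5 was the lowest in every deletion library, and Psma2 in every WT_EV library. The SD of the log2 level over the 14 was 1.86 and 2.09 in DXp and 2.13 and 1.94 in DXp_DXm, against 0.794, 0.692 and 0.680 in WT_EV. For the 17 regulatory particle subunits the highest over the lowest was 159 and 81.4 in DXp and 62.2 and 65.1 in DXp_DXm, against 6.58, 8.20 and 8.90 in WT_EV. There the lowest was the lid subunit Psmd3 and the highest the ATPase Psmc6 in every deletion library, while in every WT_EV library these were Psmd11 and Psmd2. On this per-kilobase scale Psmb5 averaged 1.21 ± 0.62 in DXp and 1.05 ± 0.31 in DXp_DXm (SD, n = 2 each), against 76.0 ± 5.6 in WT_EV (SD, n = 3). Psma6 averaged 132.1 ± 20.6 in DXp and 194.4 ± 6.0 in DXp_DXm (SD, n = 2 each), against 107.8 ± 17.1 in WT_EV (SD, n = 3).

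The ATPase ring split. In DXp 5 of its 6 subunits were lower and 1 higher, and in DXp_DXm 4 were lower and 1 higher. With offsets 4 were lower and 1 higher in DXp, and 2 lower and 1 higher in DXp_DXm. Shares of all genes were 40.1% lower and 32.2% higher in DXp, and 36.0% and 30.9% in DXp_DXm. With offsets the shares were 26.4% and 25.1% in DXp, and 21.2% and 22.1% in DXp_DXm.

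Psmc6 (ENSMUSG00000021832, chr14:45329788-45349705, plus strand) was the exception. It had 1147 and 640.9 CPM in DXp and 595.2 and 649.1 CPM in DXp_DXm, against 148.2, 130.4 and 159.4 CPM in WT_EV. All deletion libraries lay above all WT_EV libraries, and DXp replicate 1 stood above the rest. Its log2 fold change was 2.61 ± 0.27 in DXp (adjusted p = 1.91e-05) and 2.09 ± 0.27 in DXp_DXm (adjusted p = 9.96e-05), and 0.93 and 0.94 with offsets, both called. Its transcript has the lowest GC of the 46, at 37.0%.

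Psmc4 had 5.01 and 10.7 CPM in DXp and 26.5 and 11.8 CPM in DXp_DXm, against 157.0, 119.7 and 118.0 CPM in WT_EV. It was the lowest of the ring at -4.06 ± 0.47 in DXp (adjusted p = 3.9e-05) and -2.78 ± 0.44 in DXp_DXm (adjusted p = 0.000365), and remained called with offsets at -2.21 in DXp and -1.31 in DXp_DXm. Psmc3 had 10.5 and 15.6 CPM in DXp and 41.3 and 25.7 CPM in DXp_DXm, against 207.0, 174.8 and 152.5 CPM in WT_EV. For Psmc3 the log2 fold change was -3.77 ± 0.34 in DXp (adjusted p = 9.27e-06) and -2.41 ± 0.32 in DXp_DXm (adjusted p = 0.000114). With offsets Psmc3 stayed lower in DXp at -1.41, and in DXp_DXm -0.38 did not pass (adjusted p = 0.245). Psmc5 was lower by -3.35 in DXp and -1.61 in DXp_DXm, and without DXp_DXm replicate 2 the DXp_DXm value of Psmc5 was -1.27 (adjusted p = 0.0829). Psmc1 was lower by -1.75 in DXp and -0.78 in DXp_DXm. Psmc2 was lower in DXp (-1.02 ± 0.39, adjusted p = 0.0384), a call that offsets ended (adjusted p = 0.0526).

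In the rest of the base, Psmd2, a scaffold and ubiquitin-like domain receptor, had 51.7 and 89.7 CPM in DXp and 217.7 and 155.1 CPM in DXp_DXm, against 624.1, 661.2 and 663.5 CPM in WT_EV. The groups do not overlap, and the log2 fold change was -3.20 ± 0.32 in DXp (adjusted p = 1.44e-05) and -1.80 ± 0.29 in DXp_DXm (adjusted p = 0.000425), still called with offsets at -2.55 in DXp and -1.41 in DXp_DXm. The other scaffold, Psmd1, had 159.6 and 154.0 CPM in DXp and 391.8 and 310.3 CPM in DXp_DXm, against 156.5, 160.7 and 173.8 CPM in WT_EV. Only the DXp_DXm libraries stand apart there. Its log2 fold change was -0.06 ± 0.21 in DXp (adjusted p = 0.805; 95% interval -0.54 to 0.41; 0.09 with RLE size factors) and 1.10 ± 0.21 in DXp_DXm (adjusted p = 0.00115). Offsets made the DXp value a call (-0.75, adjusted p = 0.0114) and ended that of DXp_DXm (0.39, adjusted p = 0.128). The span of Psmd1 overlaps Gm21972 on its strand by 5515 bases, and Htr2b on the other strand. The ubiquitin receptor Psmd4 had 18.9 and 27.4 CPM in DXp and 23.9 and 25.8 CPM in DXp_DXm, against 180.8, 149.1 and 128.1 CPM in WT_EV. It was lower in both (-2.72 ± 0.29 in DXp, adjusted p = 2.12e-05, and -2.62 ± 0.29 in DXp_DXm, adjusted p = 3.87e-05). With offsets it was called in DXp_DXm (-0.65, adjusted p = 0.0371) and not in DXp (-0.38, adjusted p = 0.17).

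In the lid, 1 of 8 subunits was higher and 4 lower in DXp, and 4 higher and 2 lower in DXp_DXm. With offsets 1 was higher and 2 lower in DXp, and 1 higher and 1 lower in DXp_DXm. Shares of all genes were 32.2% higher and 40.1% lower in DXp, and 30.9% and 36.0% in DXp_DXm. With offsets the shares were 25.1% and 26.4% in DXp, and 22.1% and 21.2% in DXp_DXm. Psmd3, a structural subunit with the highest GC of the 46 (58.3%), had 6.95 and 7.57 CPM in DXp and 9.21 and 9.59 CPM in DXp_DXm, against 164.0, 161.0 and 161.1 CPM in WT_EV. Replicates agree closely here and the groups lie far apart: the log2 fold change was -4.48 ± 0.26 in DXp (adjusted p = 4.46e-06) and -4.11 ± 0.26 in DXp_DXm (adjusted p = 6.18e-06). With offsets it was -1.36 in DXp and -1.21 in DXp_DXm, both called. Psmd14, the deubiquitinase, had 208.2 and 180.0 CPM in DXp and 211.7 and 184.5 CPM in DXp_DXm, against 96.7, 87.9 and 103.8 CPM in WT_EV. It was higher by 1.01 ± 0.21 in DXp (adjusted p = 0.00171) and 1.04 ± 0.21 in DXp_DXm (adjusted p = 0.00169), and with offsets the values were -0.05 in DXp and 0.10 in DXp_DXm, neither called.

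Psmd13, another lid subunit, changed direction with the offsets. It had 26.8 and 38.5 CPM in DXp and 85.0 and 85.5 CPM in DXp_DXm, against 66.0, 74.3 and 59.4 CPM in WT_EV. DXp lay below WT_EV and DXp_DXm above it. In DXp it was lower by -1.03 ± 0.26 (adjusted p = 0.0045, and 0.0716 without DXp replicate 1) without offsets and higher by 0.67 (adjusted p = 0.0244) with them. In DXp_DXm it was 0.36 ± 0.24 (adjusted p = 0.218) without and 1.70 (adjusted p = 0.000451) with them. Of the other lid genes, Psmd8 was lower in both deletions without offsets, Psmd7 in DXp, and Psmd6 (adjusted p = 0.0548 without DXp_DXm replicate 1), Psmd11 and Psmd12 were higher in DXp_DXm.

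The 3 tested chaperones of the rule that assemble the regulatory particle base did not move together. Psmd5 had 40.1 and 44.6 CPM in DXp and 47.7 and 51.5 CPM in DXp_DXm, against 28.9, 26.3 and 23.9 CPM in WT_EV. It was higher in DXp (0.68 ± 0.23, adjusted p = 0.0231) and in DXp_DXm (0.91 ± 0.23, adjusted p = 0.00613), and with offsets it was lower in DXp (-0.67, adjusted p = 0.0384) and not called in DXp_DXm (-0.25). The DXp call of Psmd5 was lost without DXp replicate 2 (adjusted p = 0.0922), WT_EV replicate 2 (0.0804) or WT_EV replicate 3 (0.0553). Psmd9 had 10.8 and 9.19 CPM in DXp and 17.4 and 16.0 CPM in DXp_DXm, against 31.3, 27.4 and 29.6 CPM in WT_EV. It was lower by -1.56 ± 0.28 in DXp (adjusted p = 0.000561) and -0.82 ± 0.27 in DXp_DXm (adjusted p = 0.0198), and neither call was left with offsets. The DXp_DXm call of Psmd9 was also lost without either DXp_DXm library (adjusted p = 0.0772 and 0.0942) or WT_EV replicate 1 (0.0607). Psmd10 (gankyrin), the sole X-linked gene of the 46, had 14.8 and 12.8 CPM in DXp and 27.0 and 23.5 CPM in DXp_DXm, against 13.8, 10.1 and 14.2 CPM in WT_EV. It was called in DXp_DXm (0.99 ± 0.28, adjusted p = 0.0108) and not in DXp (0.12 ± 0.29, adjusted p = 0.718), and with offsets lower in DXp (-1.02, adjusted p = 0.0133) and not called in DXp_DXm (0.02).

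The activators are alternative caps. Of 5 tested, 1 was higher and 3 lower in DXp, and 1 higher and 1 lower in DXp_DXm. Shares of all genes were 32.2% higher and 40.1% lower in DXp, and 30.9% and 36.0% in DXp_DXm. Psme4 (PA200, a nuclear cap linked to histone breakdown in mouse testis; ENSMUSG00000040850, chr11:30771726-30880361, plus strand) had 1275 and 937.5 CPM in DXp and 759.5 and 1125 CPM in DXp_DXm, against 127.6, 149.1 and 113.8 CPM in WT_EV. It showed the highest log2 fold change of the 46 in both deletions, 3.09 ± 0.27 in DXp (adjusted p = 7.4e-06) and 2.86 ± 0.27 in DXp_DXm (adjusted p = 1.66e-05). With offsets it was 1.32 in DXp and 1.43 in DXp_DXm, both called. Psme1 (PA28 alpha, which interferon induces) had 4.81 and 8.69 CPM in DXp and 22.1 and 9.66 CPM in DXp_DXm, against 54.3, 40.1 and 45.8 CPM in WT_EV. It was lower by -2.79 ± 0.44 in DXp (adjusted p = 0.000264) and -1.56 ± 0.41 in DXp_DXm (adjusted p = 0.00706), and with offsets neither value passed (-0.27 in DXp, 0.59 in DXp_DXm), while offsets from the longest transcript of any type made the DXp_DXm value a call of higher (1.10, adjusted p = 0.0334). Without DXp_DXm replicate 2 its DXp_DXm value was -1.07 (adjusted p = 0.0586). Its partner Psme2 and the near copy Psme2b share sequence, so their reads cannot be separated with certainty. Psme3 passed in neither deletion.

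Psmf1 (PI31), a protein that inhibits the isolated core in vitro, had 7.82 and 8.19 CPM in DXp and 12.9 and 7.07 CPM in DXp_DXm, against 31.7, 24.6 and 23.7 CPM in WT_EV. It was lower by -1.74 ± 0.35 in DXp (adjusted p = 0.00132) and -1.42 ± 0.34 in DXp_DXm (adjusted p = 0.00457). Offsets moved Psmf1 further down, to -2.06 in DXp and -1.86 in DXp_DXm, both called.

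The chaperones that assemble the alpha ring also split. Psmg2 had 40.5 and 41.8 CPM in DXp and 20.5 and 25.4 CPM in DXp_DXm, against 11.6, 13.1 and 12.8 CPM in WT_EV. The 3 groups are apart from one another, DXp highest, with log2 fold changes of 1.72 ± 0.25 in DXp (adjusted p = 0.000168) and 0.88 ± 0.25 in DXp_DXm (adjusted p = 0.011). With offsets it stayed higher in DXp (1.49) and was not called in DXp_DXm (0.51, adjusted p = 0.109). Without DXp_DXm replicate 2, the DXp_DXm value of Psmg2 was 0.73 (adjusted p = 0.0705). Its partner Psmg1 was lower in DXp by -1.19 ± 0.32 (adjusted p = 0.00636) and not called in DXp_DXm (-0.38), and with offsets neither was called (0.12 in DXp, adjusted p = 0.749, and 0.51 in DXp_DXm). Psmg3 had 0.102 and 0.348 CPM in DXp and 0.539 and 0.864 CPM in DXp_DXm, against 8.27, 8.10 and 5.82 CPM in WT_EV. It was lower by -4.96 ± 0.66 in DXp (adjusted p = 8.78e-05) and -3.39 ± 0.59 in DXp_DXm (adjusted p = 0.000609), from 2 to 22 counts in the deletion libraries, and it overlaps Gm26938 on its strand. With offsets it was called in DXp (-1.85) and not in DXp_DXm (-0.61). Psmg4, the partner of Psmg3, had 2.91 and 3.78 CPM in DXp and 2.49 and 2.98 CPM in DXp_DXm, against 14.8, 10.4 and 13.8 CPM in WT_EV. Without offsets Psmg4 was lower by -1.95 ± 0.38 in DXp (adjusted p = 0.00104) and -2.24 ± 0.38 in DXp_DXm (adjusted p = 0.000578), and with them it was higher in DXp (1.15, adjusted p = 0.0161) and not called in DXp_DXm (0.44). Psmc3ip had 1.23 and 2.59 CPM in DXp and 4.77 and 2.79 CPM in DXp_DXm, against 10.02, 8.56 and 6.06 CPM in WT_EV. It was lower in DXp (-2.10 ± 0.51, adjusted p = 0.00387) and not called in DXp_DXm (-1.12 ± 0.48, adjusted p = 0.061, and 0.0384 without WT_EV replicate 3). Without Psmc3ip, 7 of 45 genes were higher and 29 lower in DXp.

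**Figure D4:**
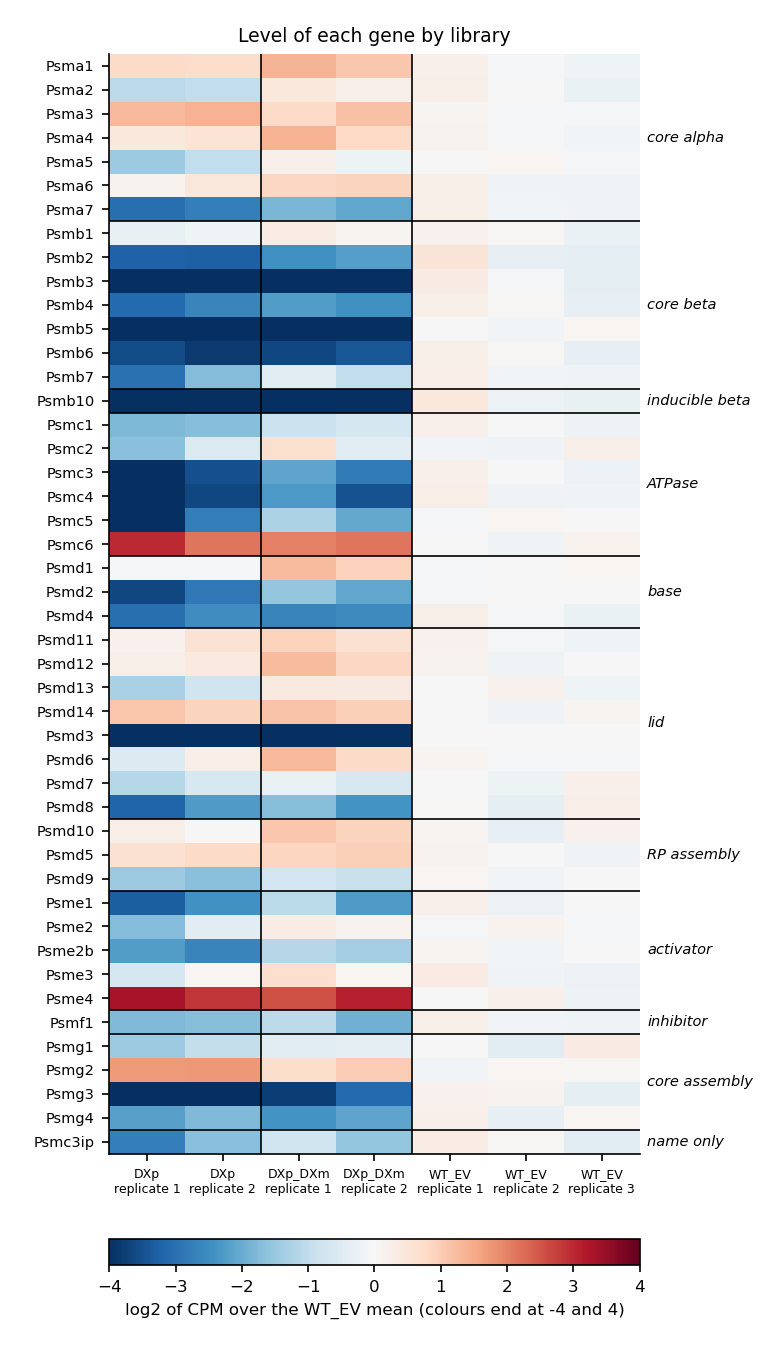
Log2 of CPM over the WT_EV mean (colour) of 46 proteasome genes (rows, by role) in 7 libraries (columns). The Psmb3, Psmb5, Psmb10 and Psmd3 rows are at or past the blue end in all 4 deletion libraries, and the Psmc6 and Psme4 rows are red in all 4.

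The homozygous deletion against the paternal one compares libraries alike in Rn7sk. No proteasome gene passed there (0 of 46 by edgeR's quasi-likelihood test, where 0.444% of all genes were called and 0.163% were called lower), yet most values pointed upward. The median log2 fold change was 0.75 over the 46 and 0.02 over all genes, and 40 of 46 were above 0, beside 51.1% of all genes. At an unadjusted p under 0.05, 23 were higher (12.0% of all genes were) and 1, Psmg2, was lower (8.81% of all genes were). For 33 of 46 genes both DXp_DXm libraries lay above both DXp libraries, beside 27.2% of all genes. Without the filter on low counts edgeR called 13 higher (3.07% of all genes), a block on the other title number 15 (5.77%), and DESeq2 called 9 higher (1.80% of all genes), among them Psma2 (1.22, adjusted p = 0.00784), Psmd13 (1.29, adjusted p = 0.00412) and Psmd2 (1.31, adjusted p = 0.00696). The edgeR adjusted p of these was 0.059 for Psma2 and for Psmd13 and 0.065 for Psmd2. In the fit without WT_EV replicate 3, edgeR called 4 genes higher (1.71% of all genes), among them Psmd1 (adjusted p = 0.0396) and Psma2 (adjusted p = 0.0351).

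The lowest p-values of edgeR in this comparison were those of Psma2 in the core, Psmd13 in the lid and Psmd1 in the base, and none passed adjustment. Psmd1 had 391.8 and 310.3 CPM in DXp_DXm and 159.6 and 154.0 CPM in DXp, a log2 fold change of 1.16 ± 0.24 (adjusted p = 0.0607). Psmc5, also of the base, had the largest log2 fold change of the 46 there. Its DXp_DXm libraries had 42.9 and 25.1 CPM and its DXp libraries 4.91 and 15.4 CPM, a log2 fold change of 1.74 ± 0.48 (adjusted p = 0.0944). Psmb5 had a value of -0.18 ± 0.42 and Psmb6 of 0.17 ± 0.28, and Psmb10 of 0.27 ± 0.66 and none of these 3 passed. With offsets the median over the 46 was 0.49, beside 0.01 over all genes, and again none passed by edgeR, where 0.15% of all genes were higher and 0.13% lower. Across the 46, the Spearman correlation with GC was 0.19 without offsets, beside 0.27 over 15311 genes.

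Both kinds of wild-type library were measured for 10 of the genes, those on the held part of the WT_clone table. Rn7sk is not on that part, so whether WT_clone is like the deletion libraries or like WT_EV in it is not known. Levels here are CPM over the genes shared by both tables, a scale of its own. In DXp against WT_clone, 6 of the 10 were lower (Psma7, Psmb4, Psmb7, Psmc3, Psmd4 and Psmf1) and none higher, where 15.2% of 3302 genes tested were called higher and 25.0% lower (40.2% in all). At an unadjusted p under 0.05 edgeR had 1 higher there, Psmd5. The median was -1.44 over the 10 and -0.09 over all. In DXp_DXm against WT_clone, 4 were lower (Psma7, Psmb4, Psmc3 and Psmd4) and 1, Psmd5, higher, where 17.6% were lower and 7.36% higher. In WT_clone against WT_EV, 3 were lower (Psma7, Psmb4 and Psmf1) and none higher by edgeR, also at an unadjusted p under 0.05, where 15.4% were lower and 15.3% higher (30.6% in all).

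Psmc3 had 45.9 and 68.8 CPM in DXp, 174.0 and 113.2 CPM in DXp_DXm and 565.8 and 813.2 CPM in WT_clone, against 1185, 995.8 and 877.2 CPM in WT_EV. It was lower than WT_clone in DXp (-3.59 ± 0.37, adjusted p = 7.45e-05) and in DXp_DXm (-2.26 ± 0.35, adjusted p = 0.00105), and with offsets in DXp (-1.70, adjusted p = 0.00581). Psma7 had 80.5 and 100.2 CPM in DXp, 175.5 and 155.7 CPM in DXp_DXm and 411.4 and 452.3 CPM in WT_clone, against 1001, 791.7 and 776.8 CPM in WT_EV. The 4 groups do not overlap: Psma7 was lower than WT_clone in DXp (-2.26 ± 0.29, adjusted p = 0.000204) and in DXp_DXm (-1.38 ± 0.28, adjusted p = 0.00457), and it was lower in WT_clone than in WT_EV (-0.99 ± 0.26, adjusted p = 0.0158). Psmb4 stood in the same order, with 48.5 and 67.8 CPM in DXp, 85.8 and 76.0 CPM in DXp_DXm and 184.2 and 288.0 CPM in WT_clone, against 640.0, 556.6 and 437.9 CPM in WT_EV.

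Psmd4 had 82.8 and 121.1 CPM in DXp, 100.7 and 113.9 CPM in DXp_DXm and 513.9 and 530.7 CPM in WT_clone, against 1035, 849.4 and 737.1 CPM in WT_EV. The deletion groups overlap each other and lie below both kinds of wild type, at -2.36 ± 0.31 in DXp (adjusted p = 0.000242) and -2.28 ± 0.31 in DXp_DXm (adjusted p = 0.000471) against WT_clone. Psmb7 was lower than WT_clone in DXp (-1.82 ± 0.41, adjusted p = 0.00495) and not called in DXp_DXm (-0.31). Psmd5 had 175.4 and 197.4 CPM in DXp, 200.7 and 227.0 CPM in DXp_DXm and 105.6 and 131.1 CPM in WT_clone, against 165.6, 149.7 and 137.7 CPM in WT_EV. Every deletion library of Psmd5 lay above every wild-type one. Psmf1 was lower than WT_clone in DXp (-1.05 ± 0.36, adjusted p = 0.0387), and WT_clone was lower than WT_EV (-1.06 ± 0.34, adjusted p = 0.0343). Several of these calls rest on 1 library. Of the WT_clone calls against WT_EV none was left without WT_EV replicate 1 (adjusted p = 0.0663 for Psma7) or without WT_clone replicate 1 (0.0555 for Psma7), and against WT_clone in DXp_DXm 2 were left without DXp_DXm replicate 2 (adjusted p = 0.0602 for Psma7 and 0.0735 for Psmb4). Psmd5 in DXp_DXm against WT_clone passed narrowly (0.85 ± 0.28, adjusted p = 0.0472), and leaving out any 1 of the 9 libraries ended that call (0.0529 without WT_clone replicate 2, 0.165 without DXp_DXm replicate 2). The Psmf1 call in DXp against WT_clone ended in 5 such fits (0.176 without DXp replicate 1). With offsets, 4 of the 10 were lower in DXp than in WT_clone (9.87% of all genes were, 5.78% were higher and 15.7% were called in all), none was called in DXp_DXm against WT_clone by edgeR, where 6.72% of all genes were (2.45% higher and 4.27% lower), and 4 were lower in WT_clone than in WT_EV (12.2% of all genes were).

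**Figure D5:**
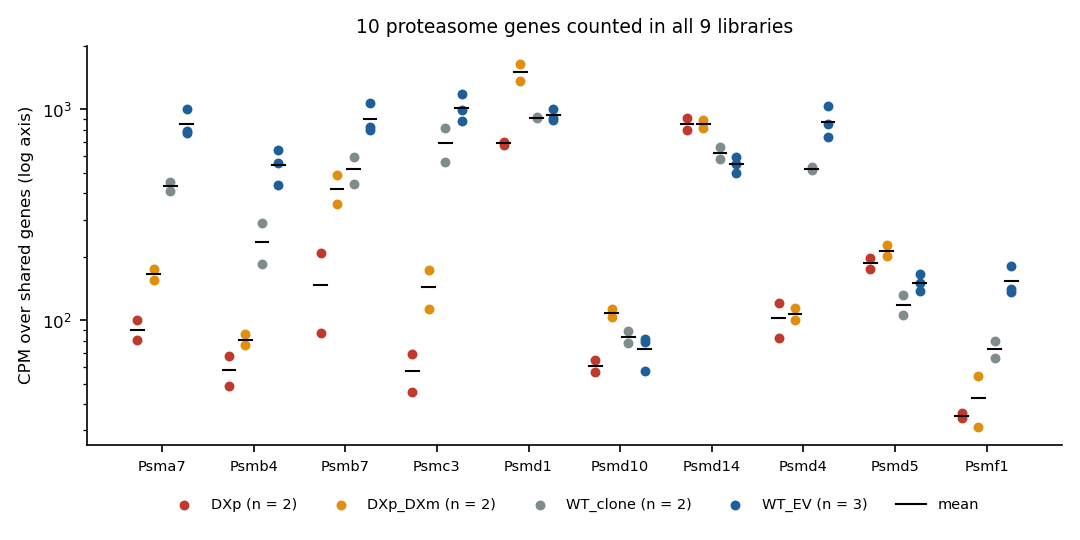
CPM over shared genes, on a log axis, of 10 proteasome genes in DXp, DXp_DXm, WT_clone and WT_EV (points are libraries, bars are means). For Psma7, Psmb4, Psmc3, Psmd4 and Psmf1 the WT_clone libraries lie between the deletion libraries and WT_EV.

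Proteins that work with the proteasome but lie outside the symbol rule were counted from a list. Of 11 partners, 6 were higher and 4 lower in DXp, and 6 higher and 1 lower in DXp_DXm. The shares of all genes were 32.2% higher and 40.1% lower in DXp, and 30.9% and 36.0% in DXp_DXm. With offsets 4 of the 11 were higher and 5 lower in DXp, and 4 higher and 3 lower in DXp_DXm. All genes then had 25.1% higher and 26.4% lower in DXp, and 22.1% and 21.2% in DXp_DXm. Usp14, the deubiquitinase that docks on the base, had 961.8 and 745.1 CPM in DXp and 403.4 and 521.7 CPM in DXp_DXm, against 69.7, 83.6 and 85.7 CPM in WT_EV (3.42 ± 0.24 in DXp, adjusted p = 4.47e-06). The regulatory-particle thioredoxin Txnl1 (3.35 ± 0.28, adjusted p = 6.47e-06) and Zfand5 (2.83 ± 0.23, adjusted p = 5.9e-06), a proteasome stimulator, were also higher in DXp. The ubiquitin receptor Adrm1 had 2.25 and 3.86 CPM in DXp and 6.93 and 3.30 CPM in DXp_DXm, against 171.6, 104.9 and 130.6 CPM in WT_EV (-5.46 ± 0.47 in DXp, adjusted p = 7.47e-06). Each of these 4 kept its direction and call in DXp with offsets. Pomp, the core maturation factor, was the one partner called between the deletions: it had 29.1 and 41.9 CPM in DXp_DXm and 7.41 and 10.7 CPM in DXp (1.97 ± 0.31, adjusted p = 0.04). With offsets none of the 11 was called between the deletions by edgeR.

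Among 8 tested genes that regulate proteasome transcription, 1 was higher and 4 lower in DXp, and 2 higher and 4 lower in DXp_DXm. Shares of all genes were 32.2% higher and 40.1% lower in DXp, and 30.9% and 36.0% in DXp_DXm. Nfe2l1 itself had 32.3 and 80.9 CPM in DXp and 41.96 and 46.2 CPM in DXp_DXm, against 159.5, 157.9 and 144.8 CPM in WT_EV, and is named because it is the regulator introduced above. It was lower without offsets (-1.44 ± 0.36 in DXp, adjusted p = 0.00431, and -1.81 ± 0.36 in DXp_DXm, adjusted p = 0.00149). With offsets it was higher in DXp (0.83, adjusted p = 0.0417) and not called in DXp_DXm (0.22). Hsf1 was lower in DXp (-4.87 ± 0.42, adjusted p = 7.35e-06), as were the small MAF genes Mafk (-2.76) and Mafg (-1.64), while Ngly1, the enzyme that activates NFE2L1 by removing its sugars, was higher (1.93 ± 0.28, adjusted p = 0.000155). With offsets 2 of the 8 were higher and 1 lower in DXp, and none was higher and 1 lower in DXp_DXm. Shares of all genes were then 25.1% and 26.4% in DXp, and 22.1% and 21.2% in DXp_DXm. Hsf1 stayed called in both deletions, and in DXp the calls of Ngly1 (0.46, adjusted p = 0.134), Mafk (-0.38, adjusted p = 0.48) and Mafg (0.03, adjusted p = 0.949) ended.

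Of 14 genes of ubiquitin supply and shuttling, 5 were higher and 8 lower in DXp, and 4 higher and 7 lower in DXp_DXm. With offsets 4 were higher and 7 lower in DXp, and 3 higher and 5 lower in DXp_DXm. For this list and the next, 32.2% of all genes were higher and 40.1% lower in DXp, and 30.9% and 36.0% in DXp_DXm. The shares with offsets were 25.1% and 26.4% in DXp, and 22.1% and 21.2% in DXp_DXm. The ubiquitin gene Ubb was lower in DXp (-4.05), and the activating enzyme Uba6 was higher (3.19 ± 0.21, adjusted p = 4.46e-06), each also with offsets. Of 7 tested class I antigen presentation genes, 3 were higher and 3 lower in DXp, and 4 higher and 2 lower in DXp_DXm. B2m (2.33) and Erap1 (2.71) were higher in DXp and H2-D1 lower (-1.38), and with offsets H2-D1 was higher (1.15) and Erap1 was not called (0.67, adjusted p = 0.402). With offsets 5 of the 7 were higher and none lower in DXp, and 4 higher and none lower in DXp_DXm. These lists were chosen with earlier results of these data known.

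Promoter sequence was available for 42 of the 50 genes, matched by symbol. The 250 bases before the RefSeq start were searched on both strands for TGACNNNGC, the core of the antioxidant response element bound by NFE2L1 with small MAF proteins, and for CCAAT, bound by NF-Y. TGACNNNGC stood in 5 of 42 (11.9%), beside 11.5% of 27025 genes in the table, and CCAAT in 15 of 42 (35.7%), beside 37.5%. By call in DXp, TGACNNNGC stood in 1 of 6 higher, 3 of 25 lower and 1 of 8 uncalled genes. The promoters that hold it in a catalytic subunit, and in the ATPase that rose, are given below from RefSeq on GRCm38.p6, 5′ to 3′ on the gene's strand, with the match in capitals. They are Psmb5 (chr14:54617996-54618245, minus strand), Psmb6 (chr11:70525107-70525356, plus strand) and Psmc6 (chr14:45329574-45329823, plus strand, with the match on the other strand).
Psmb5: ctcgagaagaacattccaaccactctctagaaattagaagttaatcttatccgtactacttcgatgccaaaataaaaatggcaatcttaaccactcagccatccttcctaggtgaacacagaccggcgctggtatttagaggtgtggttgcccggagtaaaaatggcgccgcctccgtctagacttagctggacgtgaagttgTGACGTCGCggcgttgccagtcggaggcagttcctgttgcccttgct
Psmb6: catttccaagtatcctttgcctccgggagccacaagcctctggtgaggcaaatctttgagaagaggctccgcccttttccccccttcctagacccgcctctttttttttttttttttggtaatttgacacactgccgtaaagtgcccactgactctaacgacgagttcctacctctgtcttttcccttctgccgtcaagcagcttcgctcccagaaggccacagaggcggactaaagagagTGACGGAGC
Psmc6: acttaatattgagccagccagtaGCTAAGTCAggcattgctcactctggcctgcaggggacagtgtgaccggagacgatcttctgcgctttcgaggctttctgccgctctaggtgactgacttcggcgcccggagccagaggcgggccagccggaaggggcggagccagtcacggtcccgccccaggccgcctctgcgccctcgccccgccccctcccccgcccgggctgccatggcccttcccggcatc
The first base of the match lies 47 bases before the start in Psmb5, 9 in Psmb6 and 227 in Psmc6. Psmb5 and Psmb6 were lower and Psmc6 higher in both deletions, so genes with these letters moved either way.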

How the data were processed

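Deposited raw counts per gene were used as the authors made them: per the submitters' processing notes with FastQC, STAR 2.7.9a and featureCounts 2.0.1 on GRCm38 (mm10). Strand setting, RNA selection, annotation release and handling of multi-mapping reads are not stated. Fits were made with edgeR 4.0.16 in R 4.3.3 (filterByExpr, TMM, robust quasi-likelihood test, group as the single term). The 7 libraries of the larger table were fitted together, and all 9 on the 11512 genes in both tables, of which 3302 passed the filter. P-values were adjusted by Benjamini-Hochberg over all genes tested and called at 0.05; the standard error is the log2 fold change over the square root of F. GC and length offsets were natural splines (5 degrees of freedom per term) of each library's log-CPM deviations (prior count 2). Levels per length use the transcript with the longest coding sequence, not the summed exons first planned. The offsets were moved to this transcript from the longest of any type after results had been seen. DESeq2 1.42.0 was an alternative. The fit was tested on simulated counts. The labels do not say that replicate numbers pair the libraries, and the DXp titles carry conflicting numbers, so libraries were treated as unpaired (correlations stand with the alternatives). Genes given with full values were the highest and lowest of each role in DXp, the catalytic and inducible subunits, and those called between deletions, against WT_clone or in opposite directions with offsets. Psmb3 and Psmd10 were given in addition, outside this rule. The members and all lists were chosen with earlier results of these data known. Some genes of these lists are not reported by name here.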

Additional observations from a re-analysis of the deposited data

How the results depend on the processing

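Over 83 gene comparisons the alternatives gave 1411 values: 1209 kept direction and side of the threshold, 101 lost the call, 47 gained one and 54 changed sign. The cause of these changes was not tested. With GC and length offsets the median log2 fold change was -0.77 in DXp and -0.32 in DXp_DXm against WT_EV (18 genes called in DXp_DXm), 0.49 for DXp_DXm against DXp, and against WT_clone -0.76 in DXp and -0.36 in DXp_DXm (0 called). The offsets first used the longest transcript of any type; the transcript with the longest coding sequence replaced it after seeing the data, and the first choice is kept as an added alternative. It gave medians of -0.91 in DXp and -0.24 in DXp_DXm against WT_EV, -0.69 in DXp against WT_clone, 1 gene called in DXp_DXm against WT_clone, and -0.32 in WT_clone against WT_EV. Calls were set side by side between these 2 offset choices for the 83 gene comparisons alone, not for every tested gene. Further genes changed call and are not named here. Within the 83, the call also differed for Psmd4, Psmd5, Psmd9, Psma5, Psma7 and Psmb1 in DXp and for Psmb7, Psmd6, Psmg2 and Psmg3 in DXp_DXm against WT_EV. It also differed for Psma7 in DXp and Psmd4 in both deletions against WT_clone, and for Psma7 and Psmb4 in WT_clone against WT_EV.

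The DXp titles carry 2 conflicting numbers. Same-numbered DXp and DXp_DXm libraries had r = -0.201 by the number after rep and 0.201 by the other, and DXp_DXm and WT_clone had r = 0.248 in the fit of 9 libraries. With 2 libraries per deletion these values do not settle whether numbers pair the samples, and the labels do not say so. The replicate block called 33 genes in each deletion against WT_EV and 0 between the deletions. The block with the other title number, which crosses the DXp pair, called 15 between them. The replicate block with offsets gave medians of -0.75 in DXp and -0.31 in DXp_DXm (18 called) against WT_EV, 0.49 between the deletions, and -0.76 in DXp (3 called) and -0.37 in DXp_DXm (0 called) against WT_clone. Between the deletions, 13 genes were called without the filter on low counts and 9 by DESeq2. The median of all genes in DXp against WT_EV was -0.20 with RLE size factors and 0.00 with DESeq2, beside -0.35 with TMM.

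Leaving out 1 library gave 32 to 37 calls and medians of -1.69 to -1.21 in DXp, and 30 to 35 calls and -0.67 to -0.42 in DXp_DXm, against WT_EV. Between the deletions it gave 0 to 4 calls and 0.54 to 0.91. Against WT_clone it gave 5 to 6 calls and -1.69 to -1.15 in DXp, and 2 to 4 calls and -0.90 to -0.19 in DXp_DXm. WT_clone against WT_EV gave 0 to 4 calls and -0.79 to -0.44.

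In DXp against WT_EV the sign changed with offsets for Psmd5 (-0.67), Psmd14 (-0.046), Psmd13 (0.67), Psmg4 (1.15) and Psma3 (-0.29). With longest-transcript offsets these were -0.59 for Psmd5, 0.00 for Psmd14, 0.85 for Psmd13, 1.297 for Psmg4 and -0.22 for Psma3, with Psma7 at 0.21 and Psme1 at 0.14. With the replicate block and offsets they were -0.77 for Psmd5, -0.045 for Psmd14, 0.65 for Psmd13, 1.297 for Psmg4 and -0.41 for Psma3. Psmd1 and Psmd6 were 0.094 and 0.057 with RLE, 0.082 and 0.046 with DESeq2, and 0.077 and 0.054 with the compared groups alone. Leaving out 1 library gave -0.113 to 0.026 for Psmd1 and -0.522 to 0.379 for Psmd6, above 0 without DXp replicate 1 and without DXp_DXm replicate 1.

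In DXp_DXm against WT_EV the offsets gave Psmd5 -0.25, Psmd9 0.14, Psme1 0.59, Psma2 -0.99, Psmg4 0.44, Psma3 -0.31 and Psmb1 -0.65. Longest-transcript offsets gave Psmd5 -0.21, Psma7 0.90 (called higher), Psme1 1.10 (called higher), Psma2 -0.94, Psmg4 0.63 and Psma3 -0.27, and Psma7 0.62 against WT_clone. The replicate block with offsets gave Psmd5 -0.35, Psmd9 0.20, Psme1 0.62, Psma2 -1.18, Psmg4 0.58, Psma3 -0.43 and Psmb1 -0.80. Psma5 was -0.024 with the replicate block, -0.051 with the other title number and with protein-coding genes alone, -0.13 without DXp_DXm replicate 1, -0.02 without WT_EV replicate 1 and -0.04 without WT_EV replicate 3.

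Each deletion has 2 libraries. Deletion and the Rn7sk difference between library sets cannot be told apart against WT_EV, and how RNA was selected is not stated. The WT_clone table covers 10 of the genes. Over the shared genes it holds 7641676 and 5825838 counts, against 5803983 to 6687693 in the deletion libraries and 2298180 to 3185905 in WT_EV. Its 2 libraries differ most of all replicate pairs there by chi-square per degree of freedom (435.9, against at most 147.7). Genes with under 30 counts in a library have loosely set folds. Spans of further genes given above also overlap annotated genes, among them Psmc3 (Slc39a13) and Psmd9 (Hpd), each on the other strand.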

Other observations

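The DXp libraries differed from each other by more than 1 on the log2 scale (pseudocount 0.1 CPM), replicate 2 above replicate 1, for 7 of the 46 tested proteasome genes: Psmb7, Psmc2, Psmc3ip, Psmc4, Psmc5, Psme2 and Psmg3. That is 15.2%, beside 9.97% of all 15331 genes tested. Psmc5, an ATPase of the regulatory particle, showed the widest gap, with 96 and 400 counts in DXp, beside 1035 and 640 in DXp_DXm. For 5 of the 46 genes (10.9%, beside 4.16% of all genes) DXp replicate 2 was above replicate 1 by over 1 while DXp_DXm replicate 1 was above replicate 2 by over 0.5. Over the 46 genes the range within WT_EV had a median of 0.388 and reached at most 0.886.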
